A study of Mus musculus with 2 samples.

Results

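The cells described here were chosen by measured values: within gated cells of MC38 tumors, they are the 10% with the largest share of UMIs (unique molecular identifiers, counted RNA molecules) from Csmd3, Aspn, Enpp2, Robo2 and Ogn. The gate kept barcodes with at least 8000 UMIs, at most 20% mitochondrial UMIs, Ptprc, Tyrobp, Fcer1g and Cd3e together under 0.03% of UMIs, Col1a2 and Dcn together under 0.1%, and at most 1 UMI of Cdh5 and Cldn5. It kept 7532 of 29003 barcodes, and 754 of the 7532 gated cells (701 untreated, 53 MSA-2) are the members; the other 6778 are called the other gated cells. The 5 genes and the gate genes fixed the choice, so their levels in the members are a description and support nothing.

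MC38 is a mouse colon carcinoma line, here grown as tumors in mice and injected with vehicle or with MSA-2, an agonist of the innate immune sensor STING. Each arm received 3 intratumoral doses spaced 3 days apart. The arm labelled untreated received saline with 10% DMSO, per the series record. Tumors of 3 mice were pooled into 1 droplet library per arm (10x 3′ chemistry), with no replicate, so each interval below holds counting error only and no test between arms or between cell classes was made. The untreated library held 14386 barcodes and 198135335 UMIs, and the MSA-2 library 14617 barcodes and 204387165 UMIs. Barcode sequences found in both libraries numbered 53, of which 2 fell among the members, both in the untreated library.

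Aspn (asporin) and Ogn (osteoglycin) are small leucine-rich proteoglycans of the extracellular matrix; asporin binds TGF-beta and collagen. Enpp2 encodes autotaxin, the secreted enzyme that makes lysophosphatidic acid, and Robo2 is a receptor for the SLIT guidance ligands. Csmd3 is a very large transmembrane protein with CUB and sushi domains, known mostly from neural tissue. In many tissues Aspn, Ogn and Enpp2 mark fibroblast-like cells, which is why fibroblast markers were measured beside them.

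The share of members differed between the libraries. In the untreated library 701 of 4752 gated cells were members (14.8%, exact 95% interval 13.8 to 15.8), and in the MSA-2 library 53 of 2780 (1.91%, 1.43 to 2.49). As a log2 ratio, MSA-2 to untreated, this is -2.95 (-3.38 to -2.55), a share 7.74 times as large in the untreated library. The opposite end of the score shows the same order of libraries: 18.7% of untreated gated cells (17.6 to 19.8) and 54.3% of MSA-2 gated cells (52.4 to 56.1) had no UMI of any of the 5 genes. Because the 5 genes made the choice, this difference describes how the rule splits the libraries.

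At the threshold the score is continuous. The lowest member had 0.0524% of its UMIs in the 5 genes and the highest cell outside 0.0524% (10th lowest member 0.0530%, 10th highest cell outside 0.0518%). Within 10% of the threshold lay 85 members above it and 97 cells below it. The median was 0.0868% in members and 0.00441% in other gated cells, and the highest member reached 0.525%.

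The gate acted unequally on the libraries. Of cells past the immune gate, the Col1a2 and Dcn limit removed 17.9% in the untreated library and 58.6% in the MSA-2 library. Cells past the other gates with 0.1% to 0.5% of their UMIs in Col1a2 and Dcn, called Dcn-intermediate, numbered 817 and 3167, and 319 (39.0%, 35.7 to 42.5) and 49 (1.55%, 1.15 to 2.04) of them reached the threshold. Counting gated and Dcn-intermediate cells together gave 1020 of 5569 (18.3%) untreated and 102 of 5947 (1.72%) MSA-2 cells, a log2 ratio of -3.42 (-3.72 to -3.12). These counts use the same score and threshold as the choice of members, so they describe the rule, and what part the gate has in the library difference was not tested.

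Immune cells were also measured for the 5 genes. These were taken only from barcodes past the depth and mitochondrial limits of the gate, so shallower immune cells are left out. They were defined by Ptprc, Tyrobp, Fcer1g and Cd3e together at 0.1% of UMIs or more. In this class the 5 genes summed to 124 CPM (UMIs scaled to 10⁶ in all) in the untreated and 44.5 CPM in the MSA-2 library. Of these immune cells 51 of 1067 (4.78%, 3.58 to 6.24) and 3 of 347 (0.865%, 0.179 to 2.51) reached the threshold, at median depths of 10397 and 10930 UMIs. Fibroblasts were defined, within the same limits, by Col1a2 and Dcn together at 0.5% of UMIs or more with immune genes under the gate. Dcn alone can meet this, so the class may hold other Dcn-high cells. A Col1a2 UMI was found in 74.8% of untreated and 77.3% of MSA-2 fibroblasts, and a Lum UMI in 67.0% and 54.5%. Of the fibroblasts, 63.5% of 230 untreated and 14.3% of 789 MSA-2 cells reached the threshold. All 4 classes of cells were thus lower in the MSA-2 library, and what parts free RNA and doublets have in this was not tested.

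**Figure D1:**
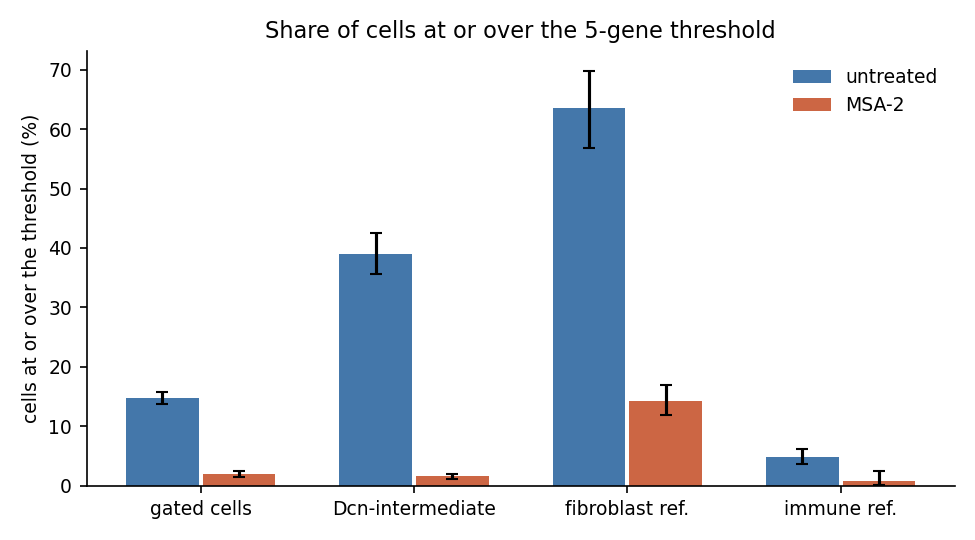
Share of cells (%) with at least the lowest member's share of UMIs in Csmd3, Aspn, Enpp2, Robo2 and Ogn, by class of cells and library, with exact 95% intervals that hold counting error only. Untreated bars stand above MSA-2 bars in each class: 14.8% against 1.91% of gated cells and 63.5% against 14.3% of fibroblasts.

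Depth differed too. Members had a median of 16360 UMIs (untreated) and 14532 (MSA-2), against 25617 and 24622 in other gated cells. The share of mitochondrial UMIs had a median of 3.46% and 4.16% in members and 2.56% and 2.92% in the others. After each cell was thinned to 8000 UMIs the median number of genes detected was 2840 and 2822 in members against 2810 and 2822 in the others, so at matched depth the members were as complex as the rest. With the score taken on thinned cells, 674 untreated (14.2%) and 63 MSA-2 cells (2.27%) were chosen, 628 of them members. Scrublet called 7 of the untreated members (0.999%) and none of the 53 MSA-2 members doublets, against 1.31% and 1.91% of other gated cells.

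Csmd3 (ENSMUSG00000022311, chr15:47580637-48792063, minus strand) was the most abundant of the 5 genes in untreated members. Its level was 279 CPM (270 to 288) in untreated members and 191 CPM (163 to 222) in MSA-2 members, against 27.9 and 8.77 CPM in other gated cells. A Csmd3 UMI was found in 75.0% of untreated and 67.9% of MSA-2 members. In immune cells, which should lack it, the shares were 13.1% and 3.46% at the lower depths given above, and their levels of 22.9 and 3.26 CPM lay below those of other gated cells. Fibroblasts held 19.0 and 1.01 CPM, so Csmd3 was high in members and not in fibroblasts. The paralogs Csmd1 and Csmd2 were at or near 0, with 0.390 CPM in untreated members together and 0 in MSA-2 members, and neither was abundant enough to be compared.

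Robo2 (ENSMUSG00000052516, chr16:73891839-74411825, minus strand) shared this pattern. It stood at 177 CPM (170 to 185) in untreated and 347 CPM (310 to 389) in MSA-2 members, against 19.99 and 10.8 CPM in other gated cells. It was the only one of the 5 with a higher level in MSA-2 than in untreated members. Robo2 UMIs were present in 62.1% of untreated and 83.0% of MSA-2 members, and in 10.5% and 5.76% of immune cells. Fibroblasts held 19.6 and 1.66 CPM.

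Aspn (ENSMUSG00000021388), Ogn (ENSMUSG00000021390) and Enpp2 (ENSMUSG00000022425, chr15:54838901-54952892, minus strand) were shared with fibroblasts. Aspn was at 218 CPM (210 to 227) and 153 CPM (128 to 181) in members and 399 and 71.1 CPM in fibroblasts, against 15.5 and 2.51 CPM in other gated cells. Ogn was at 236 CPM (228 to 244) and 216 CPM (186 to 249) in members, 193 and 103 CPM in fibroblasts and 29.9 and 9.65 CPM in other gated cells. Enpp2 was the lowest of the 5, at 107 CPM (102 to 113) and 69.2 CPM in members, 239 and 44.6 CPM in fibroblasts and 14.2 and 6.996 CPM in other gated cells. Immune cells held 27.1 and 6.33 CPM of Aspn, 27.7 and 14.1 CPM of Ogn, and 29.1 and 14.1 CPM of Enpp2, at or above the other gated cells except for Ogn in the untreated library. Untreated Dcn-intermediate cells held 102 CPM of Aspn, 95.1 CPM of Ogn and 203 CPM of Enpp2, and also 72.5 CPM of Csmd3 and 54.2 CPM of Robo2. All 5 genes were thus higher there than in other gated cells of that library, and Enpp2 was higher than in the members. MSA-2 Dcn-intermediate cells differed: Csmd3, Robo2 and Ogn were below other gated cells, at 3.36, 3.91 and 8.27 CPM. Aspn and Enpp2 were above them, at 5.10 and 15.5 CPM.

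**Figure D2:**
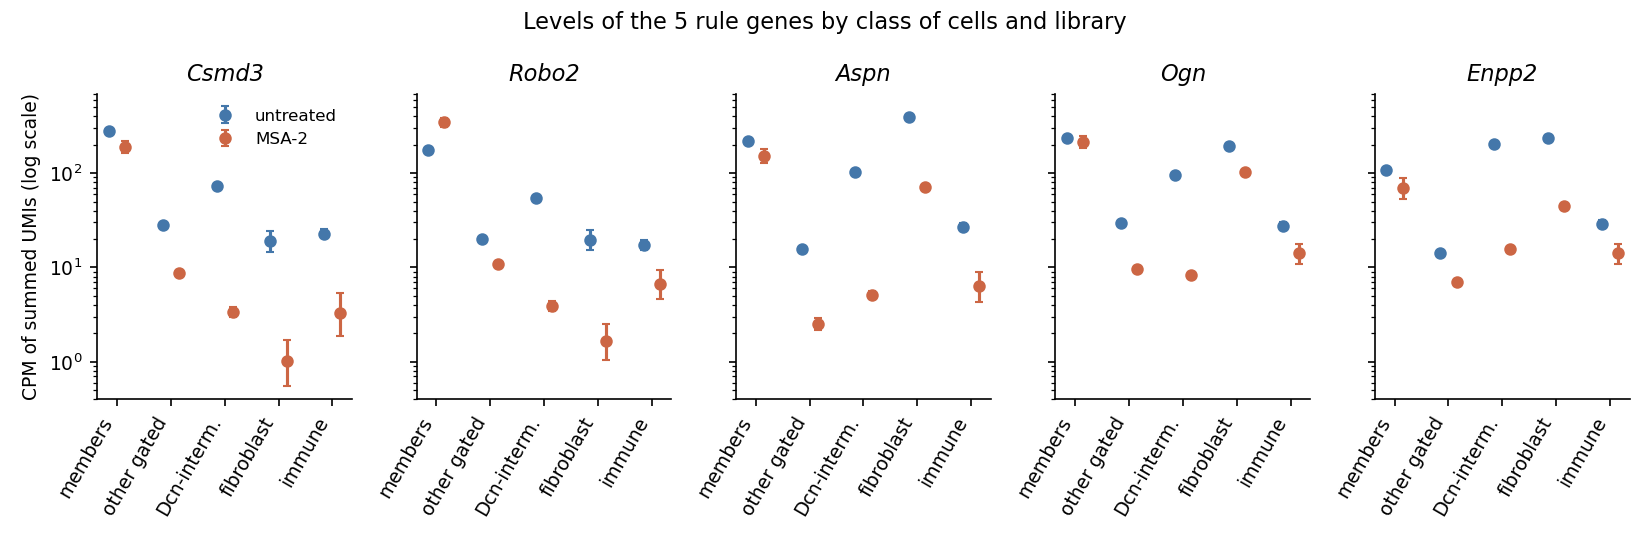
Level (CPM of summed UMIs, log scale) of each of the 5 genes in members, other gated cells, Dcn-intermediate cells, fibroblasts and immune cells, with exact 95% counting intervals, by library. Csmd3 and Robo2 were high in members and near 20 CPM or lower in fibroblasts, while Aspn, Ogn and Enpp2 were high in both.

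Few members had a UMI of each of the 5 genes. A gene can be missed by sampling at such low counts, so the counts below do not limit how many cells express all 5. At least 4 of the 5 genes had a UMI in 307 untreated members (43.8%) and 20 MSA-2 members (37.7%), against 5.06% and 0.477% of other gated cells, and all 5 in 69 and 5 members. Only 1 of the 5 genes had UMIs in 25 untreated and 7 MSA-2 members. Csmd3 led, with the most UMIs or tied for the most, in 220 untreated members (31.4%). Aspn led in 162 (23.1%), Ogn in 140 cells, Robo2 in 111 (15.8%) and Enpp2 in 68 (9.70%). A tie went to the gene that comes first in the order Csmd3, Aspn, Enpp2, Robo2, Ogn, which favors Csmd3 and disfavors Ogn. Of the UMIs of the 5 genes, Csmd3 held 27.4%, Ogn 23.2% and Robo2 17.4% in untreated members. In MSA-2 members these shares were 19.5%, 22.1% and 35.6%. In MSA-2 members Robo2 led in 21 cells (39.6%) and Csmd3 in 16 (30.2%), with Ogn leading in 8, Aspn in 5 and Enpp2 in 3. The balance of the 5 genes thus leaned to Robo2 in the MSA-2 library, over 53 cells.

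The 5 genes went together weakly from cell to cell. Across gated cells thinned to 8000 UMIs, the strongest pair was Aspn and Ogn, with Spearman rho of 0.32 over 4752 untreated and 0.23 over 2780 MSA-2 cells. Csmd3 and Robo2 had 0.20 and 0.16, and the pairs with Enpp2 lay between 0.04 and 0.12 in the untreated library. These are sparse counts from 1 library each, and depth is matched by the thinning.

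A choice by 4 of the genes leaves the other free to be measured. In the top 10% of gated cells by the other 4 genes, Aspn was at 162 CPM against 21.7 CPM elsewhere in the untreated library (log2 2.90, 2.82 to 2.99) and at 97.6 against 2.81 CPM in the MSA-2 library (5.12, 4.77 to 5.45). Csmd3, left out in the same way, was at 180.0 against 39.0 CPM (2.21, 2.13 to 2.28) and 96.4 against 9.56 CPM (3.33, 3.03 to 3.62). Robo2 gave log2 ratios of 2.13 (2.04 to 2.22) and 3.63 (3.35 to 3.90), and Ogn 2.16 (2.08 to 2.23) and 3.63 (3.35 to 3.90). Enpp2 had the smallest, 1.19 (1.06 to 1.32) and 3.16 (2.76 to 3.55). Each of the 5 was higher where the other 4 were high, in both libraries; the genes were proposed from these same cells, so this is no independent support.

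The label of a tumor state rests on the MC38 origin, and the epithelial markers do not show it. The paper's methods call all 29003 barcodes immune cells after sorting. By the 4 immune genes used here, 5833 of 7379 untreated and 6833 of 7546 MSA-2 barcodes past the depth and mitochondrial limits lay under the immune limit. In untreated members Krt18 and Krt19 had 0 UMIs, Krt8 and Epcam 1 UMI each and Krt7 8 UMIs among 12809111, and in MSA-2 members all 5 had 0 UMIs of 880964. Other gated cells were as low, with Krt8 at 0.134 and 0.254 CPM and Epcam at 0.233 and 0.0401 CPM. The 13 epithelial genes listed summed to 2.97 and 3.41 CPM in members and none could be compared. The 12 mesenchymal genes listed, all expressed, had a median log2 ratio of members over others of 0.10 and 0.28, with none past 2-fold in both libraries. Vim, an intermediate filament of mesenchymal cells, was at 3036 and 2423 CPM in members and 3740 and 2869 CPM in the others. The markers thus name neither class as epithelial, and the members are called here by their 5 genes.

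Fibroblast markers were mixed in the members. Col1a2, a gate gene, was at 23.0 and 56.8 CPM in members against 7174 and 3591 CPM in fibroblasts, and Col1a1, which the gate did not use, at 92.6 and 125 CPM against 9827 and 4633 CPM. Lum was at 1.80 and 2.27 CPM (fibroblasts 529 and 152), Thy1 at 2.19 and 3.41 CPM (99.4 and 42.1) and Cthrc1 at 1.56 and 2.27 CPM (544 and 146). These 3 were near 0 in members, while some other genes of the fibroblast list were not. Col3a1, a fibrillar collagen, was high all the same, at 2531 and 2137 CPM in members, 809.9 and 407 CPM in other gated cells and 11166 and 6355 CPM in fibroblasts. Pdgfra, at 43.4 and 59.0 CPM in members, was at 121 CPM in the fibroblasts of each library, and Col6a2, at 156 and 153 CPM in members, was at 379 and 243 CPM. The members thus carried a part of the fibroblast genes, and Col3a1, Pdgfra and Col6a2 were below their fibroblast levels.

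Against the other gated cells, the members differed at a limited set of genes. UMIs were summed over cells of a class in each library, and 9222 genes with at least 5 CPM over gated cells of each library were compared, without the 5 genes. At least 2-fold higher in both libraries, with 1 CPM added, were 153 genes (1.66% of those compared), and 121 (1.31%) were at least 2-fold lower. In the untreated library alone the counts were 194 and 209, and in the MSA-2 library, where 53 members give noisier ratios, 602 and 503. Across the 9222 genes the ratios of the libraries had a Pearson correlation of 0.770; genes are not independent replicates. Both counts depended on the choice of cells: taken as the top 10% within each library (476 and 278 cells), the counts were 97 higher (78 of them among the 153) and 8 lower (6 among the 121). At 8000 to 20000 UMIs 52 genes were higher (38 of the 153), and in cells with 0 of 10 cycling genes 51 (36 of the 153). The matrix and TGF-beta calls below rest on the 153.

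**Figure D3:**
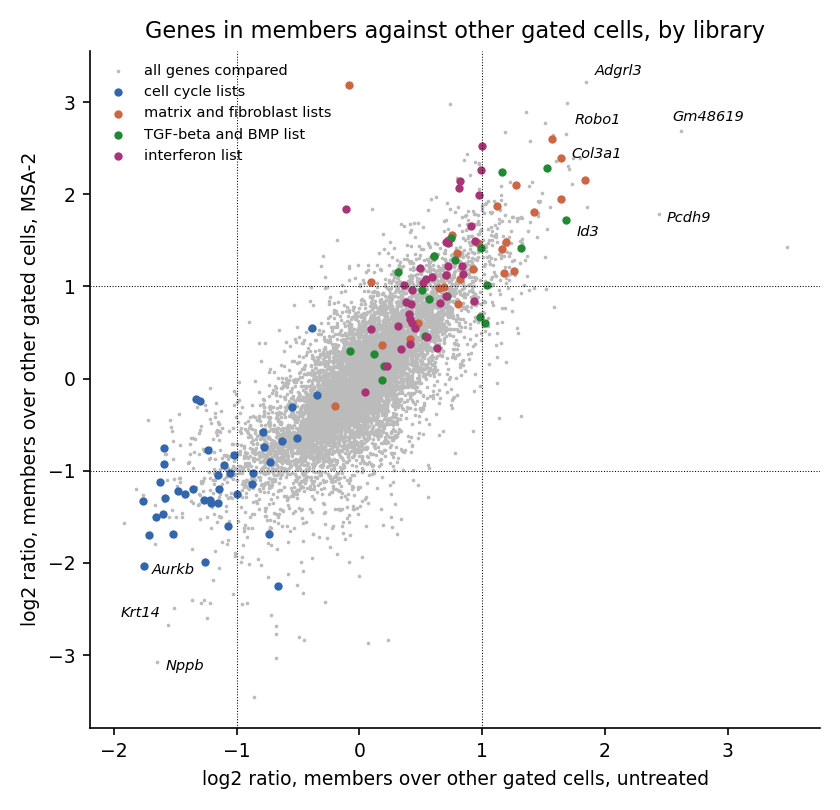
Log2 ratio (1 CPM added) of members over other gated cells for 9222 genes, untreated library on the horizontal and MSA-2 library on the vertical axis, with dotted lines at 2-fold and genes of 4 groups of lists in color. Of the genes compared, 153 lay in the upper right and 121 in the lower left corner; matrix genes such as Col3a1 were in the first and cell cycle genes such as Aurkb in the second.

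Matrix genes stood higher in members than in other gated cells, but against Dcn-intermediate cells they were uneven. Untreated Dcn-intermediate cells held 2869 CPM of Col3a1, 1637 CPM of Fn1 and 159 CPM of Col6a2, at or above the untreated members. Col5a1 and Col6a3 went the other way, at 131 and 156 CPM there and 197 and 213 CPM in untreated members. MSA-2 Dcn-intermediate cells held 976 CPM of Col3a1, 292 CPM of Fn1 and 138 CPM of Col6a2, below the MSA-2 members. Col6a1 and Col1a1 were not below them, at 308 and 137 CPM against 286 and 125 CPM in MSA-2 members. Of 16 extracellular matrix genes compared, 5 were at least 2-fold higher in both libraries and none lower, with a median log2 ratio of 0.78 (untreated) and 1.34 (MSA-2), against 0.02 and -0.02 over all genes compared. Fn1, which encodes fibronectin, was at 1606 CPM in members and 739 in the others in the untreated library (log2 1.12) and at 1333 and 364 CPM in the MSA-2 library (log2 1.87). The matrix glycoprotein Tnc was at 108 against 39.8 CPM and 101 against 28.1 CPM, and the collagen Col5a2 at 108 against 33.9 CPM and 109 against 27.4 CPM. Col12a1 and Matn2 were the other 2 past the limit. Of 11 fibroblast genes compared, 5 were at least 2-fold higher in both and none 2-fold lower, with medians of 0.93 and 1.19. The 5 were Col3a1, Postn, Pdgfra, Mmp2 and Col6a2. Fbln1 lay the other way by less, at 26.2 against 30.2 CPM and 20.4 (18 UMIs) against 25.3 CPM.

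The Col3a1 ratio was 1.64 (1.63 to 1.66) in the untreated and 2.39 (2.33 to 2.46) in the MSA-2 library. Postn, a matricellular protein, was at 143 against 47.7 CPM and 112 against 17.7 CPM, with immune cells at 58.0 and 90.4 CPM. A Postn UMI was found in 42.1% and 34.0% of members and 37.1% and 29.996% of other gated cells, so the shares of cells differed less than the levels. Pdgfra, a growth factor receptor of mesenchymal cells, was at 43.4 against 18.6 CPM and 59.0 against 26.1 CPM. Dcn-intermediate cells held 56.3 and 62.5 CPM of Pdgfra, so it did not set the members apart from that class. By contrast Acta2, the smooth muscle actin of myofibroblasts, was at 11.8 against 12.6 CPM in the untreated library, and its 60.2 CPM in MSA-2 members came from 53 UMIs in 5 cells. Among 13 small leucine-rich proteoglycans only Bgn (biglycan) was abundant enough to be compared: it was at 120.4 against 32.9 CPM and 194 against 42.7 CPM (1.87 and 2.18), with immune cells at 56.3 and 144 CPM and untreated Dcn-intermediate cells at 161 CPM. The gate gene Dcn did not go the same way in both libraries: it was at 271 against 159.7 CPM in the untreated library (0.76, 0.71 to 0.82) and at 299 against 346 CPM in the MSA-2 library (-0.21, -0.40 to -0.04).

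The TGF-beta and BMP list, to which asporin is linked as a ligand-binding protein, gave 5 of 20 genes higher in both and none lower, with medians of 0.73 and 0.99. Among ligands, Tgfb3 was at 121 against 41.4 CPM (log2 1.55, 1.46 to 1.63) and 74.9 against 14.6 CPM (2.36, 1.98 to 2.72), and Tgfb2 at 18.6 against 7.74 CPM and 30.6 against 5.71 CPM. Tgfb1 was not higher, at 30.6 against 32.3 CPM and 23.8 against 19.2 CPM. The co-receptor Tgfbr3 was at 197 against 95.7 CPM and 305 against 150.03 CPM, while the signalling receptors Tgfbr1 and Tgfbr2 had log2 ratios of 0.59 and 0.32 untreated and 0.90 and 1.17 MSA-2. The target gene Id3 was at 485 against 150.2 CPM (1.69, 1.65 to 1.73) and 345 against 104 CPM (1.73, 1.56 to 1.90), with fibroblasts at 490.3 and 437 CPM. Genes past 2-fold in both libraries thus included ligands, a co-receptor and a target gene.

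Genes of the Robo2 pathway were uneven. Of 8 guidance genes compared, Robo1 was the only one past 2-fold, at 177 against 54.6 CPM (1.70, 1.63 to 1.77) and 242 against 37.6 CPM (2.68, 2.48 to 2.89). Robo1 UMIs were found in 76.7% and 86.8% of members and in 17.99% and 14.4% of immune cells. The ligand Slit2 was at 136 against 75.1 CPM and 222 against 130.1 CPM, while Slit1 and Slit3 were below the limit for comparison. The list medians were 0.46 and 0.38. On the lysophosphatidic acid pathway of Enpp2, none of 6 genes compared was past 2-fold in both libraries (medians 0.04 and 0.25); the receptor Lpar1 was at 62.8 against 37.8 CPM and 39.7 against 20.6 CPM, and the phosphatase Plpp3 at 36.5 against 17.0 CPM and 36.3 against 25.6 CPM.

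The 15 genes highest in members include some for adhesion proteins; no set was tested. Pcdh9 and Pcdh17 are protocadherins: Pcdh9 was at 218 against 39.5 CPM (log2 2.47, 2.40 to 2.54) and 358 against 103 CPM (1.80, 1.63 to 1.96). MSA-2 Dcn-intermediate cells held 422 CPM and MSA-2 fibroblasts 330.4 CPM of Pcdh9, so it did not set MSA-2 members apart from those classes. Pcdh17 was at 21.6 against 5.27 CPM and 73.8 against 19.5 CPM. Adgrl3, an adhesion receptor, was at 38.1 against 9.85 CPM (1.95) and 67.0 against 6.28 CPM (3.42). The scaffold gene Magi1 was at 230.5 against 70.4 CPM and 258 against 51.4 CPM. The first by rank was the unnamed transcript Gm48619, at 63.0 against 9.43 CPM and 77.2 against 11.2 CPM, followed in the 15 by F830016B08Rik, the transcription factor Klf12, the ubiquitin ligase gene Rnf217, the kinase gene Prkd1 and the vascular growth factor gene Angpt1. Of the 27 neural adhesion genes listed, 5 could be compared, of which Pcdh9 was past 2-fold in both (medians 0.78 and 1.03).

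Cell cycle genes were among those lower in members. Of 20 S-phase genes, 7 were at least 2-fold lower in both libraries and none higher (medians -0.87 and -1.04), and all 20 had negative ratios in both. Of 20 G2 and mitosis genes, 13 were lower and none higher (medians -1.45 and -1.24). Aurkb, a mitotic kinase, was at 10.1 against 36.7 CPM (log2 -1.85, -2.12 to -1.60) and 7.95 against 35.5 CPM (-2.16, -3.48 to -1.12). Rrm2, a subunit of ribonucleotide reductase, was at 36.0 against 104.9 CPM and 29.5 against 96.9 CPM, and Top2a, a topoisomerase of dividing cells, at 92.4 against 258 CPM and 121 against 284 CPM. Ccna2, Pbk and the G1 cyclin Ccnd1 (184 against 473 CPM and 236 against 465 CPM) lay the same way. Bub1b was the exception among the 20, at 65.8 against 44.7 CPM in MSA-2 members. With the top 10% taken within each library, 6 of all 121 lower genes stayed past 2-fold, so most of these calls depend on the choice of cells.

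Counted by cell, at least 3 of 10 cycling genes had a UMI, after thinning to 8000 UMIs, in 181 of 701 untreated members (25.8%, 22.6 to 29.2) and 2374 of 4051 other gated cells (58.6%, 57.1 to 60.1), a log2 ratio of -1.18 (-1.41 to -0.96). In the MSA-2 library the counts were 22 of 53 (41.5%, 28.1 to 55.9) and 1972 of 2727 (72.3%, 70.6 to 74.0), a ratio of -0.80 (-1.48 to -0.20). None of the 10 genes was seen in 21.1% and 11.3% of members and 10.1% and 4.62% of the others. All 10 of these genes were among those compared, with medians of -1.45 and -1.29 and 8 of 10 past 2-fold lower. The members thus held fewer cycling cells in each library, by an amount that depends on the choices: the untreated ratio was -0.72 at 8000 to 20000 UMIs and -0.56 with 2 of 10 genes asked for, and the MSA-2 ratio -0.25 with Col1a2 and Dcn under 0.02%.

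The other genes among the 10 lowest were not of the cell cycle. The secreted carbonic anhydrase Car6 was at 15.8 against 52.4 CPM and 19.3 against 69.3 CPM, the natriuretic peptide gene Nppb at 5.54 against 19.5 CPM and 3.41 against 36.1 CPM, and Klra4 at 67.2 against 192 CPM and 77.2 against 255 CPM. Bok, of the BCL-2 family, was at 17.0 against 51.8 CPM and 12.5 against 37.2 CPM. The keratin gene Krt14 was at 9.29 against 28.2 CPM in the untreated library (-1.60, -1.88 to -1.34) and had 1 UMI in MSA-2 members (1.14 against 11.01 CPM). Of the 3 genes compared on the Krt14 and Areg list, Krt14 was the only one past 2-fold; Areg, an EGF-receptor ligand, was at 24.2 against 24.0 CPM and 18.2 against 21.5 CPM. The top 10% of gated cells by Krt14 and Areg held 49 untreated members (6.99%, 5.22 to 9.14) against 12.4% of other gated cells, and 3 MSA-2 members (5.66%) against 7.37%.

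The differences were also followed in steps of the score. Sampling of such low counts spreads cells over neighbouring steps, so the steps cannot tell a gradient from a separate state. From gated cells with no UMI of the 5 genes among 8000 to those with 9 or more, the cycling share went from 66.3% to 22.6% in the untreated and from 74.2% to 35.3% in the MSA-2 library. Col3a1 went from 575 to 2995 CPM and from 351 to 3873 CPM, and Ccnd1 from 536 to 147 CPM and from 482 to 119 CPM. Median depth fell along the same steps, from 28005 to 15940 UMIs and from 25334.5 to 11923 UMIs. The last MSA-2 step held 17 cells; without it the MSA-2 ends were 47.8% cycling, 1341 CPM of Col3a1 and 279 CPM of Ccnd1 over 46 cells with 5 to 8 UMIs.

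**Figure D4:**
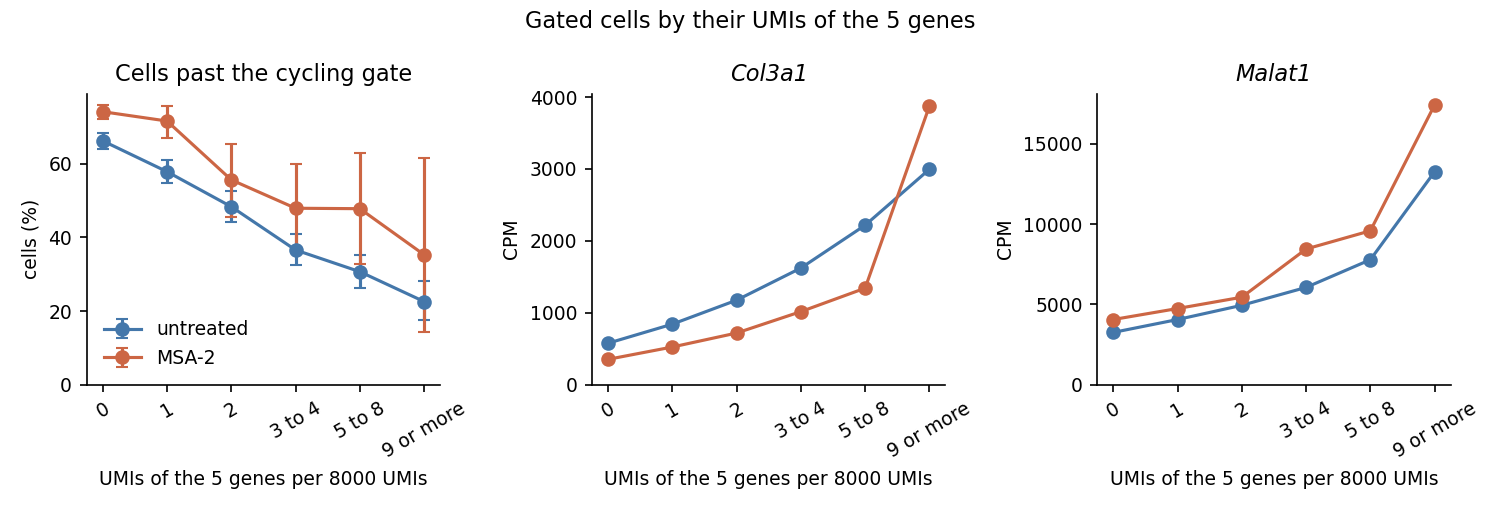
Gated cells by their number of UMIs of the 5 genes among 8000 UMIs, in each library: share with at least 3 of 10 cycling genes (%, exact 95% counting intervals), and levels of Col3a1 and Malat1 (CPM of summed UMIs). Cycling fell from 66.3% to 22.6% and Col3a1 rose from 575 to 2995 CPM in untreated cells, and the last MSA-2 point rests on 17 cells.

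Single genes were also ranked by how they followed the score from cell to cell. Over gated cells thinned to 8000 UMIs, Spearman rho with the score was highest, by the lower of the libraries, for Fn1 (0.38 over 4752 untreated and 0.31 over 2780 MSA-2 cells), Col3a1 (0.50 and 0.25), Nr4a3 (0.29 and 0.23), Trps1 (0.37 and 0.23) and Btg2 (0.39 and 0.21). Fos, Ext1, Klf4, Hivep2 and Nupr1 completed the 10. The lowest were Npm1 (-0.43 and -0.22), a nucleolar protein of growing cells, and S100a10 (-0.41 and -0.21). All cells of a point share a library and, after thinning, a depth. The 11 immediate-early genes listed had medians of 0.83 and 0.74 in members over others, with none past 2-fold in both libraries; Fos was at 2674 against 1499 CPM and 2462 against 964 CPM, and Egr1 at 955 against 512 CPM and 848 against 395 CPM.

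The members carried more nuclear RNA and more UMIs of long genes. Malat1, a long noncoding RNA kept in the nucleus, made up 0.983% of UMIs in untreated and 1.23% in MSA-2 members against 0.391% and 0.431% in the others, and was the only gene of the 4 nuclear RNAs compared past 2-fold in both (medians 1.01 and 1.16). Neat1 was at 217 against 135 CPM and 435 against 169 CPM. By span on the genome, the decile of compared genes longer than 124 kb had medians of 0.40 and 0.51 and 58 of 923 genes (6.28%) higher in both, while the decile with the shortest genes had -0.10 and -0.20. Genes of the longest decile took 7.14% and 8.93% of members' UMIs against 4.97% and 5.54%. The 153 higher genes had a median span of 87.2 kb and the 121 lower genes 15.2 kb, against 25.6 kb over all. Csmd3 itself spans 1211 kb and Robo2 520.0 kb, but Ogn 16.5 kb and Aspn 23.1 kb, so the rule mixes very long and short genes; what part nuclear content has in the higher genes was not tested. Whether reads in introns were counted is not stated in the deposited record, and this bears on the levels of long genes such as Csmd3 and Robo2.

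On the genome, Aspn and Ogn lie side by side with Omd on chromosome 13. Aspn spans chr13:49544443-49567565, Omd chr13:49582462-49592822 and Ogn chr13:49608046-49624501, all on the plus strand (mm10). Omd, or osteomodulin, is a further small leucine-rich proteoglycan that the rule did not use: it was at 5.39 CPM (4.19 to 6.82) in untreated and 11.4 CPM (5.44 to 20.9, 10 UMIs) in MSA-2 members against 1.32 and 1.04 CPM in other gated cells. Immune cells held 1.11 and 1.22 CPM of Omd, and fibroblasts 10.8 and 1.45 CPM. Omd in members was thus above its level in immune cells, and below that of fibroblasts in the untreated library. Ecm2, on the other side of Aspn at chr13:49504810-49532789, was at 0.546 and 0 CPM in members and 0.457 and 0.481 CPM in the others. Of the 40 compared genes nearest to Aspn and Ogn, 20 on each side, none was past 2-fold higher in both and 1 (Nop16) was lower. Genes higher in both made up 1.66% of all compared genes, and 3.19% on chromosome 13, 2.83% on chromosome 15 and 2.61% on chromosome 16. Chromosomes 12 and 1, which carry none of the 5 genes, had 3.37% and 3.17%. Around Csmd3 and Enpp2 on chromosome 15, the 40 nearest held 4 higher genes, Angpt1, Trps1, Ext1 and Zhx2, with medians of 0.04 and -0.15 (Csmd3). Around Robo2 on chromosome 16, 4 were higher, Col8a1, Vgll3, Robo1 and App, with medians of 0.17 and 0.34. Medians of whole chromosomes ran from -0.05 to 0.12 untreated and from -0.14 to 0.09 MSA-2, so no chromosome stood apart by more than that.

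The promoters of these 3 neighbours are shown so that they can be compared; Aspn and Ogn were fixed by the rule, and Omd, the only free gene, lies under the 5 CPM limit in other gated cells. Each runs from 250 bases before to 50 after the start in RefSeq (GRCm38.p6), plus strand, at chr13:49544193-49544492 for Aspn, chr13:49582212-49582511 for Omd and chr13:49607765-49608064 for Ogn. Capitals mark matches, on either strand, of the TATA box letters TATAAA, of the AP-1 letters TGANTCA, of the TEAD letters GGAATG and of the RUNX letters TGTGGT.
Aspn: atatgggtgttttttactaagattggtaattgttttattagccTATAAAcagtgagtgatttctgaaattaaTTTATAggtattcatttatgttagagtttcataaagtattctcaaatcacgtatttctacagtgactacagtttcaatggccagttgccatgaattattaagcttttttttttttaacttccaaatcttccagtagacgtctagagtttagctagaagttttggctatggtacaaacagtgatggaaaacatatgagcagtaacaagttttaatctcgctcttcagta
Omd: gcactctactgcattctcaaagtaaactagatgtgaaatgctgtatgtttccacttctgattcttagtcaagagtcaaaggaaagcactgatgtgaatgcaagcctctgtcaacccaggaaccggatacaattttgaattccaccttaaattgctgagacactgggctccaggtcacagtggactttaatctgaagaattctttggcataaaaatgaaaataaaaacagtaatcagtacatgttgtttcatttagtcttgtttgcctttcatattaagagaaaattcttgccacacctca
Ogn: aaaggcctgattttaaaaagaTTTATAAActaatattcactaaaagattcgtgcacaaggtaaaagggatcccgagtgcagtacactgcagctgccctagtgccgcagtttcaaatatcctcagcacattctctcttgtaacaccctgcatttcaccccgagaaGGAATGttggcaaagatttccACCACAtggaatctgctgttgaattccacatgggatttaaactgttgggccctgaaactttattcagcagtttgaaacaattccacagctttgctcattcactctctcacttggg
TATAAA was found 2 times in the Aspn and 2 times in the Ogn window, where its matches on the strands overlap, and not in that of Omd. The TEAD letters and the RUNX letters were each found 1 time in the Ogn window, and the AP-1 letters in none of the 3. Of 32851 promoter windows of this length, 13.6% held the TATA box letters, 7.81% those of AP-1, 14.7% those of TEAD and 16.8% those of RUNX. A match is only a match of letters. Of the 6 genes looked for in this set of 32851 windows, 4 had an entry. Csmd3 and Enpp2 had none in the set used here.

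Between the libraries, members differed at more genes than other gated cells did, over far fewer cells. Of 9671 genes with at least 5 CPM over members, 368 (3.81%) were at least 2-fold higher in MSA-2 than in untreated members and 461 (4.77%) lower. In other gated cells 172 (1.78%) and 152 (1.57%) of the same genes were. With 53 cells and 880964 UMIs in the MSA-2 members, a ratio of a weak gene rests on few UMIs, and a gene at the 5 CPM limit may have none. The median over all genes was -0.07 in members and -0.04 in the others.

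Interferon-stimulated genes, which STING agonists induce through type I interferon, were higher in the MSA-2 library. Of the 37 listed, 28 were at least 2-fold higher in MSA-2 than in untreated members and 24 in other gated cells, none was lower, and the median log2 ratio was 1.71 in members and 1.44 in the others. Their sum was 16779 CPM in MSA-2 and 4455 CPM in untreated members, against 6689 and 2984 CPM in the others. Rsad2, the antiviral protein viperin, was at 4094 against 276.5 CPM in members (log2 3.89, 3.82 to 3.96) and 978 against 157 CPM in the others (2.64, 2.61 to 2.66), and it had a UMI in each of the 53 MSA-2 members. Ifit1 was at 1093 against 126 CPM in members (3.11, 3.00 to 3.23) and 346 against 66.7 CPM in the others (2.37). The sensor gene Ifih1 was at 889 CPM in MSA-2 members and 113 CPM in untreated members, against 153 and 55.9 CPM in the others. The gap between members and others depends on the choice of cells: chosen within each library, the medians were 1.27 in members and 1.29 in the others.

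**Figure D5:**
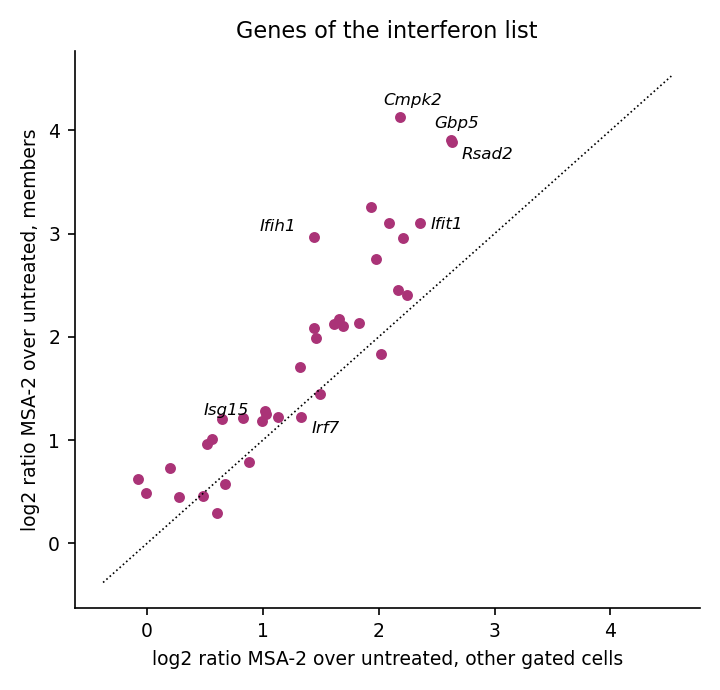
Log2 ratio (1 CPM added) of MSA-2 over untreated for the 37 interferon-stimulated genes, in other gated cells (horizontal) and members (vertical), with a dotted line of equal values. Cmpk2, Gbp5, Rsad2 and Ifih1 lie above the line, the medians being 1.71 in members and 1.44 in the others.

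Within each library the same list was also higher in members than in other gated cells. Its 37 genes had medians of 0.55 (untreated) and 1.02 (MSA-2), with 35 of 37 positive in both libraries, though none reached 2-fold in both. Isg15 was at 368 against 225 CPM and 838 against 449 CPM, and Oasl1 at 79.6 against 40.1 CPM and 694 against 173 CPM. Cmpk2 and Oas3 were the 2 without a positive ratio in both. Genes of antigen presentation by MHC class I lay the same way but by less, with medians of 0.35 and 0.45 and 11 of 11 positive in both; H2-K1 was at 3021 against 1956 CPM and 2203 against 1499 CPM. Between libraries the class I list had medians of -0.16 in members and -0.30 in the others.

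Inflammatory genes also differed. Of 12 compared between libraries, 8 were at least 2-fold higher and 1 lower in MSA-2 members, with medians of 1.17 in members and 1.06 in the others. Ifnb1, the interferon-beta gene, was at 69.2 CPM (61 UMIs in 21 of 53 cells) in MSA-2 and 2.50 CPM in untreated members, and at 16.3 and 2.05 CPM in the others; immune cells held 413 and 57.5 CPM. The cytokine gene Il6 was at 136 against 8.43 CPM in members and 20.5 against 4.13 CPM in the others, with immune cells at 133 and 8.27 CPM and fibroblasts at 491 and 128 CPM. MSA-2 members were thus near the level of immune cells for Il6 and below that of fibroblasts. Cxcl9, a chemokine that draws T cells, was the 1 gene of 10 on the list past 2-fold between members and others in both libraries (medians 0.42 and 0.36), at 321 against 140.1 CPM and 662 against 103 CPM. Its level rose from untreated to MSA-2 members and was lower in MSA-2 than in untreated other cells. Cxcl10 was at 7141 and 3075 CPM in MSA-2 and untreated members and 4037 and 2145 CPM in the others.

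Some genes that differed strongly between libraries had a like level in each class of cells outside the immune cells. S100a8, a neutrophil gene, was at 129 CPM in MSA-2 members, 145 in other gated cells, 140.4 in Dcn-intermediate cells, 116 in fibroblasts and 794 CPM in immune cells, and at 0.703 CPM in untreated members. H2-Eb1, of MHC class II, was at 105 CPM in untreated members, 104 in other gated cells, 106 in fibroblasts and 3156 in immune cells, and at 1.14 CPM in MSA-2 members. Neither gene set the members apart from the other non-immune classes. Saa3, an acute-phase gene among the 10 highest, was not alike across classes: it was at 110.1 CPM in MSA-2 members and 7458 CPM in MSA-2 fibroblasts. The macrophage list gave the same picture: 7 of 8 genes were lower in MSA-2 members and 6 of 8 in the others (medians -1.73 and -1.68), its sum was 915 and 244 CPM in members and 899 and 230.5 CPM in the others, and Apoe was its most abundant gene. The 2 neutrophil genes compared had medians of 6.24 and 6.18.

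Markers of immune and endothelial cells were measured within each library. The 6 macrophage genes compared had medians of 0.04 and 0.02 between members and other gated cells, with none past 2-fold in both. On the lymphocyte list only Igkc was compared (-1.58 and -0.82), and its sum was 63.2 and 13.6 CPM in members and 126 and 28.9 CPM in the others, with Igkc the most abundant. The T and NK cell markers Nkg7, Cd3d and Cd3e were low and uneven. Nkg7 was at 8.82 against 7.16 CPM untreated and at 1.14 against 1.70 CPM (1 UMI in members) in the MSA-2 library. Cd3d was at 4.68 against 3.21 CPM and 1.14 against 0.427 CPM (1 UMI in MSA-2 members). Cd3e was at 1.01 against 1.26 CPM and 0 against 0.187 CPM. On the endothelial list only Cd34 was compared (-0.12 and 0.11). No neutrophil or muscle gene passed the limit in that comparison, the muscle list summing to 4.61 and 3.41 CPM in members. The 5 gate genes compared had medians of -0.05 and -0.02.

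Hypoxia genes (15 compared) had medians of 0.02 and -0.10 and p53 targets (8) -0.13 and 0.09, with none past 2-fold in both. Of 4 Wnt genes compared, Lef1 was higher in both, at 24.7 against 11.6 CPM and 18.2 against 6.01 CPM, with list medians of 0.11 and -0.28. The 3 skeletal genes compared, Sox9, Runx2 and Mkx, were all higher in members, with medians of 0.63 and 1.03 and none past 2-fold in both; Runx2, a bone transcription factor, was at 35.8 against 22.7 CPM and 87.4 against 41.0 CPM. Chrm3 and Rbfox1 were too low to be compared; a UMI of either among 8000 was found in 14 untreated members (1.997%) against 0.667% of other gated cells, and in 5 MSA-2 members (9.43%, 3.13 to 20.7) against 7.48%.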

How the data were processed

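The count matrices deposited for the 10x 3′ v3.1 libraries hold UMIs on mm10, for barcodes the authors had kept. They come from Cell Ranger 7.0.1 per the file headers, while the sample notes give 7.0.0 and the paper's methods a later version. Members and gene lists were chosen with earlier results of these data known. For each class the UMIs of its cells were added up and divided by their total, as CPM. Genes with at least 5 CPM were compared, and calls and list medians used log2 ratios with 1 CPM added, while ratios of single genes had none. Shares have Clopper-Pearson intervals, sums Poisson intervals and ratios conditional binomial intervals, each exact at 95%. Cells were thinned to 8000 UMIs with seed 1. Genes were named by rule: the 15 highest and 10 lowest in members by the smaller ratio of the libraries, the 10 highest and 10 lowest between libraries, the 10 closest to the score, and genes of the lists; not all are printed, and 1 list gene is not reported here. Doublets were called with Scrublet in scanpy 1.11.5. Spans and positions are from GENCODE M21, which holds 99.8% of the features. Python 3.11.15, numpy 2.4.6, scipy 1.17.1, pandas 2.3.3 and matplotlib 3.10.9 were used, and ratios were checked on simulated counts.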

Additional observations from a re-analysis of the deposited data

How the results depend on the processing

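Of 201 values from alternatives, 152 stayed and 49 moved. No ratio or median changed sign, while the counts of genes among the 201 cannot change sign. The bound was 1.5 times for counts of genes, the exact 95% interval for ratios and, for the interferon median, the exact interval of the gene in the middle of the list. The alternatives by Col1a2 alone, immune genes under 0.1%, 8000 to 20000 UMIs and 0 of 10 cycling genes were chosen after seeing the data. The log2 ratio of the member share (-2.95) ran from -3.35 to -2.37, being -2.37 with the top 20% and -2.40 with Col1a2 and Dcn under 0.02%. The cycling ratio ran from -1.34 to -0.56 in untreated cells (-0.72 at 8000 to 20000 UMIs, -0.64 unthinned, -0.56 with 2 of 10 genes) and from -1.39 to -0.25 in MSA-2 cells.

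Genes higher in members in both libraries (153) numbered 234 in the top 5%, 100 in the top 20%, 97 chosen within each library, 52 at 8000 to 20000 UMIs, 51 in cells with 0 of 10 cycling genes, 73 with 10 CPM added and 93 at a 20 CPM filter. Genes lower in both (121) numbered 209 in the top 5%, 39 in the top 20%, 8 within each library, 66 with a thinned score, 58 with Col1a2 and Dcn under 0.02%, 194 with Col1a2 alone under 0.05%, 48 at 8000 to 20000 UMIs, 37 in cells with 0 of 10 cycling genes and 31 with 10 CPM added.

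Genes higher in MSA-2 members (368) numbered 658 with Col1a2 and Dcn under 0.02%, 831 at 8000 to 20000 UMIs, 215 with 10 CPM added, 686 at a 1 CPM filter and 205 at 20 CPM. Genes lower (461) numbered 1015 in the top 5%, 200 in the top 20%, 294 within each library, 1073 with Col1a2 and Dcn under 0.02%, 242 with Col1a2 alone, 1381 at 8000 to 20000 UMIs, 79 with 10 CPM added, 1009 at 1 CPM and 155 at 20 CPM. The interferon median in members (1.71) was 1.49 in the top 5%, 1.27 within each library, 1.36 at 8000 to 20000 UMIs and 1.36 with 10 CPM added.

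Left-out genes moved with a thinned score (Csmd3 to 2.10 untreated and 2.93 MSA-2, Enpp2 to 1.41 untreated, Ogn to 3.30 MSA-2) and with Col1a2 and Dcn under 0.02% (Csmd3 to 2.57 untreated, Aspn to 4.33 MSA-2, Enpp2 to 1.73 and 3.89, Ogn to 2.32 and 2.66). MSA-2 members numbered 23 in the top 5%, 17 with Col1a2 and Dcn under 0.02%, 16 at 8000 to 20000 UMIs and 6 with 0 of 10 cycling genes, so those values rest on few cells. The cause of the other shifts was not tested.

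With 1 pooled library an arm, the spread between tumors is unknown and library and treatment cannot be told apart. No paired analysis was possible because each arm has 1 library.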
